A study of Mus musculus with 20 samples.

Results

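The 50 genes described here were lower in cells sorted by an endothelial reporter from injured than from intact mouse sciatic nerve. This held at both 7 and 14 days, with little or no return between these times. They are 50 of 55376 genes in the deposited table. They were chosen on CPM, each count divided by its library's total and multiplied by 1000000. L is the group mean of log2(CPM + 1); L was at least 1.5 lower than intact at 7 days and again at 14 days, L at 14 days exceeded L at 7 days by at most 0.5, and the mean intact level was at least 10 CPM. Symbols of gene models, of the forms Gm plus digits and Rik, were to be left out, and none of the 50 had one. All other genes count as named here, also the member AC138228.2, an identifier without a gene name. These values from all 3 Tomato groups chose the genes, so the differences between those groups are given as a description, without a test. Of 9495 named genes that reached the intact level, 530 (5.58%) were lower by 1.5 at 7 days and 180 (1.9%) at 14 days. Both limits were met by 167 genes, of which 117 were higher at 14 than at 7 days by more than 0.5 and were left out.

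RNA with polyA tails was sequenced in bulk from sorted endothelial cells of adult mice. In the Tomato experiment, Cdh5(PAC)-CreERT2, a tamoxifen-inducible recombinase driven by the VE-cadherin promoter, switched on the R26-TomatoLSL reporter, and the genotype is given as Plxnd1 WT. Its groups were uninjured nerve (intact, 5 libraries), the lesion site 7 days after injury (7 dpi, 5 libraries) and the lesion site 14 days after injury (14 dpi, 4 libraries). In the Cherry experiment, cells carrying the Kdr-Cherry reporter were taken at 7 dpi from mice with endothelial deletion of Plxnd1 by a Cdh5 CreER driver and floxed alleles (KO, 3 libraries) or from control mice (WT, 3 libraries). The injury is named a crush in the condition label, while the design text calls the tissue the bridge, the new tissue between nerve stumps. Nerves were pooled before dissociation, and the sort kept reporter-positive cells without CD45, the surface marker of leukocytes. The labels do not tie libraries to animals, and p-values therefore cover library-to-library spread only, part of which may be technical.

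Vessels of a healthy peripheral nerve form the blood-nerve barrier: their endothelial cells are sealed by tight junctions, rely on selective transporters, and rest on a laminin-rich basement membrane. After injury, endothelial cells sprout into the lesion, and such sprouting is known to go with loss of features of resting vessels. Features of resting endothelium include arterial identity, transport functions, cholesterol handling and responses to circulating hormones such as glucocorticoids. Fewer cells of a type and less RNA per cell cannot be told apart in bulk samples.

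Library totals ran from 19057029 to 34181449 counts in the Tomato experiment and from 19253137 to 33793402 counts in the Cherry experiment. The labels put libraries in batch 1133 or 1292, and every group has libraries of both. The summed level of 20 pan-endothelial markers was 9581 to 18060 CPM in intact, 10958 to 16521 CPM in 7 dpi and 9424 to 12205 CPM in 14 dpi libraries. Other cell types were also present in the Tomato sort: 29 fibroblast markers summed to 19116 to 30753 CPM in intact, 6668 to 30286 CPM in 7 dpi and 25577 to 49766 CPM in 14 dpi libraries. Summed Y-linked genes ranged from 39.98 to 233 CPM in intact, from 0 to 205 CPM in 7 dpi and from 0 to 271 CPM in 14 dpi libraries, so the libraries differed in the sex of the mice they held. They were above 1 CPM in 5 of 5 intact, 1 of 5 7 dpi and 2 of 4 14 dpi libraries, and in all KO and WT libraries, so sex ran largely along the comparison of 7 dpi with intact nerve. A check was added after the data were seen. The single 7 dpi library above 1 CPM lay below every intact library in all 50 members, and both such 14 dpi libraries did so in 49. The same libraries chose the members, so these counts follow largely from the rule and cannot bear on sex. The part of sex in the differences was not tested. Plxnd1, the deleted gene, was lower in KO than in WT cells by a log2 fold change of -1.23 ± 0.10 (SE, edgeR adjusted p = 1.3e-04).

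The members had intact levels of 10.1 to 164 CPM, with a median of 32.7 CPM. The median difference from intact was -2.06 at 7 dpi and -1.83 at 14 dpi (log2). As a share of the intact mean, the median member stood at 19.2% at 7 dpi, with a range from 2.62% for Slco1c1 to 34.1% for Prune2. At 14 dpi the median share was 25.3%, from 4.22% for Slco1c1 to 34.6% for Msmo1. Between these times the level changed little, with a median difference of 0.24 (log2, 14 dpi minus 7 dpi). The members were not all flat: 37 were higher at 14 than at 7 dpi and 13 were lower, and 24 lay 0.25 to 0.5 higher, just short of the limit for recovery. Plekhs1 had the lowest value, at -0.79.

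**Figure D1:**
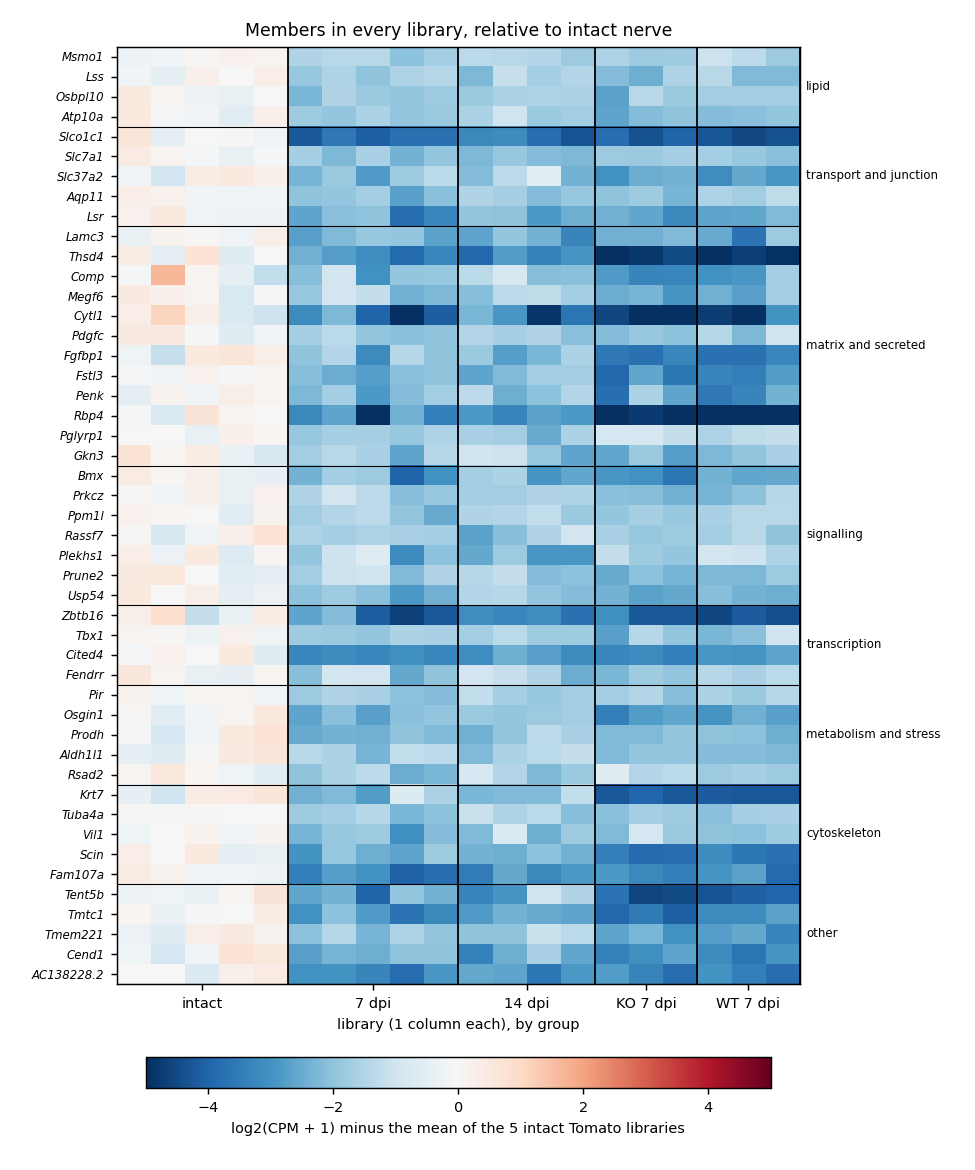
Level of 47 members (rows, by role) in each of the 20 libraries (columns, by group), as log2(CPM + 1) minus the mean of the 5 intact Tomato libraries of that gene. Blue is lower than intact, red is higher, and values under -5 take the darkest blue; the 7 dpi, 14 dpi, KO and WT columns are blue in nearly every row, and the 2 experiments were normalized separately.

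In 47 of the 50 members, every 7 dpi and every 14 dpi library lay below every intact library, against 7.64% of the 9495 genes of the same intact level. This share follows from the rule and is no support for it. The exceptions were Comp, Krt7 and Slc37a2, in which a single injured or intact library crossed over. All 50 were lower than intact at both times within batch 1133 and within batch 1292. The libraries of both batches chose the members, so these directions also follow largely from the rule. The median differences were -2.14 at 7 dpi and -1.91 at 14 dpi in batch 1133, and -2.06 and -1.83 in batch 1292. The recovery limit was less even: 36 members kept it within batch 1133 and 39 within batch 1292. Osgin1 was the member in which every 14 dpi library lay above every 7 dpi library, and no member had every 14 dpi library below every 7 dpi library. The recovery limit keeps the first count low. Neither count is set beside a share over all genes, so they are no finding about the members.

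**Figure D2:**
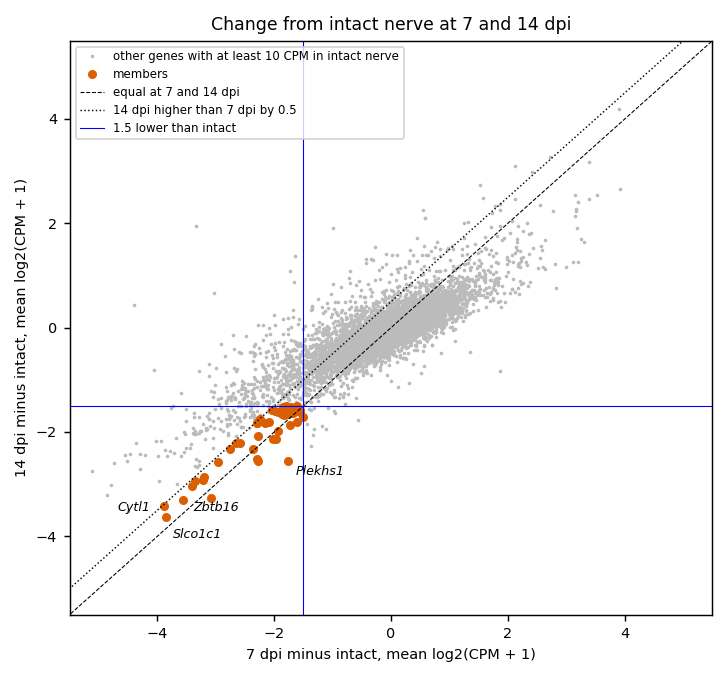
Difference from intact nerve at 7 dpi (horizontal axis) and at 14 dpi (vertical axis), both as mean log2(CPM + 1), for 47 members (orange) and other named genes with at least 10 CPM in intact nerve (grey). The solid lines stand at 1.5 lower than intact and the dotted line at a 14 dpi level 0.5 above the 7 dpi level; Plekhs1 lies below the dashed line of equality.

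The edges of the rule cut through genes with close values. At the 7 dpi threshold, Prune2 was inside at -1.505 and Ch25h, a cholesterol hydroxylase, outside at -1.44, followed by Shroom1 at -1.40 and Srebf2 at -1.37. At the 14 dpi threshold, Msmo1 was inside at -1.5004, while Slc16a9 at -1.49, Bcl2l1 at -1.48 and Plcb3 at -1.48 were outside. At the recovery limit, Usp54 was inside at 0.48, and Wasf3 at 0.50, Ppp1r12b at 0.50 and Sema3d at 0.52 were outside. At the intact level, Vil1 was inside at 10.1 CPM and Wwc1 outside at 9.98 CPM. Scaling the libraries by TMM instead left 37 of the members, and 17 remained whichever single library was left out.

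Several members handle cholesterol and other lipids. Msmo1 and Lss encode enzymes of cholesterol synthesis, a sterol methyl oxidase and lanosterol synthase. Msmo1 had 68.6, 77.8, 89.5, 100.1 and 93.3 CPM in the intact libraries, 29.6, 32, 31.6, 19.6 and 25.4 CPM in the 7 dpi libraries and 33, 32.1, 30.2 and 23.4 CPM in the 14 dpi libraries. Its 3 groups hold 2 levels, with intact libraries high and both injured groups overlapping. Lss averaged 15.2 ± 3.35 CPM in intact nerve, 4.04 ± 0.862 CPM at 7 dpi and 4.32 ± 1.63 CPM at 14 dpi (mean ± SD, n = 5, 5 and 4 libraries, here and below). Osbpl10, an oxysterol-binding protein of the lipid transfer family, averaged 14.9 ± 3.83 CPM in intact nerve, 3.30 ± 0.833 CPM at 7 dpi and 3.98 ± 0.451 CPM at 14 dpi. Atp10a, a flippase that moves phospholipids across the plasma membrane, averaged 44.4 ± 11.8 CPM in intact nerve, 11.5 ± 1.39 CPM at 7 dpi and 14.5 ± 4.36 CPM at 14 dpi.

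The other genes of the sterol pathway were set beside these from a list of 27 that was put together after the members had been seen. Of the 24 genes that are no members, 12 fell and 2 rose at 7 dpi, and 14 fell and none rose at 14 dpi (edgeR adjusted p under 0.05), while of the 20409 genes tested 16.3% fell and 15.7% rose at 7 dpi, and 5.09% fell and 6.86% rose at 14 dpi. For rises at 14 dpi, none had an unadjusted p under 0.05 and DESeq2 called none. The non-members' median log2 fold change at 14 dpi was -0.93, against 0.00 over all genes tested. The shares of all genes that fell or rose against intact are also the background for the list counts below. Srebf2, the transcription factor that drives this pathway and lay just outside the rule, averaged 138 ± 31.5 CPM in intact nerve, 51.9 ± 5.0 CPM at 7 dpi and 47.6 ± 18.2 CPM at 14 dpi.

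The next set transports solutes or seals the vessel wall. Slco1c1 carries thyroxine and organic anions at brain barriers and had the greatest relative loss of the 50. It measured 33.8, 15.1, 22.2, 23 and 18.8 CPM in the intact libraries, 0.242, 0.929, 0.329, 0.726 and 0.728 CPM in the 7 dpi libraries and 1.47, 1.59, 0.614 and 0.128 CPM in the 14 dpi libraries. The lowest intact library was about an order of magnitude above the highest injured one, and all but 2 injured libraries held it at or under 1 CPM. Slc7a1, the transporter of cationic amino acids such as arginine, measured 134, 111, 93.3, 78.3 and 94.3 CPM in the intact libraries, 31.5, 20.6, 31.6, 19 and 24.9 CPM in the 7 dpi libraries and 20.6, 26.5, 21.9 and 20.5 CPM in the 14 dpi libraries. The groups at 7 and 14 dpi overlapped and both lay below every intact library. Lsr, a receptor for lipoproteins and a protein of tricellular tight junctions, measured 102, 122, 76.4, 71.8 and 72.3 CPM in the intact libraries, 13.1, 19.9, 20.7, 5.39 and 8.22 CPM in the 7 dpi libraries and 21.6, 21, 11 and 15.2 CPM in the 14 dpi libraries. Its 2 lowest 7 dpi values came from batch 1133. Aqp11, an intracellular aquaporin, averaged 53.9 ± 9.52 CPM in intact nerve, 12.1 ± 3.04 CPM at 7 dpi and 14.7 ± 3.03 CPM at 14 dpi, and Slc37a2, a sugar phosphate exchanger of the endoplasmic reticulum, averaged 14.7 ± 5.18 CPM in intact nerve, 2.84 ± 1.41 CPM at 7 dpi and 4.67 ± 3.44 CPM at 14 dpi.

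Slco1c1 and Slc7a1 are in a list of barrier transporters. Among its 46 other tested genes, 27 fell and 4 rose at 7 dpi, and 19 fell and 5 rose at 14 dpi. At 14 dpi against 7 dpi, 21 of its genes rose and 3 fell, against 5.73% and 4.20% of all genes tested. Of 24 tested genes of tight and adherens junctions other than Lsr, 15 fell and 2 rose at 7 dpi, and 6 fell and 3 rose at 14 dpi (10 fell with DESeq2). At 14 dpi against 7 dpi, 9 junction genes rose and none fell, where DESeq2 and an unadjusted p under 0.05 gave 1 that fell.

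Basement membrane, matrix and secreted proteins made up 13 members. Lamc3, a laminin gamma chain of basement membranes, averaged 30.1 ± 5.63 CPM in intact nerve, 5.52 ± 1.73 CPM at 7 dpi and 4.49 ± 2.03 CPM at 14 dpi. Thsd4, an ADAMTS-like protein that binds fibrillin, measured 58.1, 31.9, 72.3, 29.5 and 45.5 CPM in the intact libraries, 7.56, 5.86, 4.36, 2.06 and 3.76 CPM in the 7 dpi libraries and 1.99, 5.55, 3.36 and 4.97 CPM in the 14 dpi libraries. Comp, a pentameric matrix glycoprotein of the thrombospondin family, measured 15.6, 54.6, 18, 11.3 and 6.31 CPM in the intact libraries, 2.96, 8.31, 1.11, 3.52 and 3.67 CPM in the 7 dpi libraries and 5.88, 9.0, 2.93 and 3.11 CPM in the 14 dpi libraries. A single intact library carried much of its intact mean, and its highest injured libraries overlapped the lowest intact one. Comp is also among the 29 fibroblast markers. Of the 28 others, 9 fell and 11 rose at 7 dpi, and 4 fell and 13 rose at 14 dpi. Megf6, a protein with EGF-like repeats, averaged 37.8 ± 10.9 CPM in intact nerve, 11.1 ± 5.44 CPM at 7 dpi and 11.6 ± 3.36 CPM at 14 dpi.

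Lamc3, Thsd4 and Comp belong to a matrix list, of which 70 genes that are no members were tested. At 7 dpi, 22 of these fell and 23 rose, and at 14 dpi 9 fell and 25 rose. Col4a1, the first gene of the list and a main chain of vascular basement membrane, moved the other way and averaged 653 ± 147 CPM in intact nerve, 3620.4 ± 1279 CPM at 7 dpi and 1909 ± 600.1 CPM at 14 dpi. Its log2 fold change was 2.52 at 7 dpi and 1.68 at 14 dpi. Col4a2, its partner chain, averaged 464 ± 77.6 CPM in intact nerve, 2030.1 ± 438 CPM at 7 dpi and 1253 ± 257 CPM at 14 dpi. Lower Lamc3 and higher collagen IV chains were thus found in the same libraries.

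Cytl1, a small secreted cytokine-like protein, measured 129, 224, 126, 61.5 and 49.2 CPM in the intact libraries, 10.3, 20.7, 5.47, 0.764 and 4.91 CPM in the 7 dpi libraries and 19.99, 12.8, 2.57 and 7.28 CPM in the 14 dpi libraries. The intact libraries of batch 1292 were higher than those of batch 1133, and every injured library was below all of them. Rbp4, the carrier of retinol in blood, measured 57.2, 36.2, 93.6, 66.4 and 59.3 CPM in the intact libraries, 5.53, 8.65, 0.740, 10.4 and 4.76 CPM in the 7 dpi libraries and 7.399, 4.93, 8.63 and 7.25 CPM in the 14 dpi libraries. Both injured groups covered a similar low range. Pglyrp1, a secreted protein that binds bacterial peptidoglycan, measured 69.6, 71.7, 54.3, 85 and 75.7 CPM in the intact libraries, 18.5, 21.4, 21.5, 18.2 and 23.6 CPM in the 7 dpi libraries and 22.4, 20.6, 11.5 and 22.8 CPM in the 14 dpi libraries, with no overlap of the intact libraries and the others. Gkn3, a gastrokine with known expression in arterial endothelium of mouse brain, averaged 39.8 ± 15.7 CPM in intact nerve, 10.8 ± 3.41 CPM at 7 dpi and 12.5 ± 6.23 CPM at 14 dpi. Pdgfc, a growth factor ligand of PDGF receptors, averaged 26.7 ± 8.33 CPM in intact nerve, 6.65 ± 1.72 CPM at 7 dpi and 7.43 ± 1.57 CPM at 14 dpi. Fgfbp1, a carrier that releases FGFs from the matrix and is known in brain endothelium as a Wnt-responsive gene, averaged 13.5 ± 5.83 CPM in intact nerve, 2.59 ± 1.45 CPM at 7 dpi and 2.19 ± 1.07 CPM at 14 dpi. Fstl3, a secreted inhibitor of activin, averaged 18.4 ± 2.08 CPM in intact nerve, 3.04 ± 0.815 CPM at 7 dpi and 3.71 ± 1.33 CPM at 14 dpi, and Penk, the precursor of enkephalin peptides, averaged 19.5 ± 4.11 CPM in intact nerve, 3.74 ± 1.42 CPM at 7 dpi and 4.99 ± 2.04 CPM at 14 dpi. Among 45 tested growth factor genes other than Pdgfc and Fgfbp1, 10 fell and 9 rose at 7 dpi, and 5 fell (9 with DESeq2) and 7 rose at 14 dpi. Over all genes tested, 16.3% fell and 15.7% rose at 7 dpi, and 5.09% fell and 6.86% rose at 14 dpi. A list of detoxification and retinoid genes holds Rbp4, and of its 50 other tested genes 39 fell and 3 rose at 7 dpi, and 24 fell and 2 rose at 14 dpi. At 14 dpi against 7 dpi, 28 of these 50 rose and 2 fell, against 5.73% and 4.20% of all genes tested.

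Bmx, a Tec family tyrosine kinase of arterial endothelium, had the highest CPM of the members in intact nerve. It measured 214, 173, 188, 123 and 120.4 CPM in the intact libraries, 29.9, 48.4, 44.1, 9.02 and 18.6 CPM in the 7 dpi libraries and 48.7, 52, 19.6 and 25.5 CPM in the 14 dpi libraries. The lowest intact library stood above the highest injured one by more than the spread within either injured group. At 7 dpi the 2 libraries of batch 1133 had the lowest values. Prkcz, an atypical protein kinase C of cell polarity, averaged 24.8 ± 4.41 CPM in intact nerve, 8.01 ± 2.97 CPM at 7 dpi and 7.28 ± 0.601 CPM at 14 dpi. Ppm1l, a protein phosphatase of stress kinase pathways, averaged 42.9 ± 7.96 CPM in intact nerve, 11.9 ± 3.83 CPM at 7 dpi and 14.4 ± 2.65 CPM at 14 dpi, and Rassf7, a RAS association domain protein, averaged 14.8 ± 5.73 CPM in intact nerve, 3.88 ± 0.261 CPM at 7 dpi and 3.73 ± 2.41 CPM at 14 dpi. Plekhs1, a protein with a pleckstrin homology domain, measured 33.5, 21.8, 37.7, 16.9 and 29.1 CPM in the intact libraries, 6.25, 12.7, 16.5, 2.18 and 5.67 CPM in the 7 dpi libraries and 3.73, 6.79, 2.69 and 2.66 CPM in the 14 dpi libraries. Its 7 dpi libraries were spread widely and reached above those of 14 dpi. Prune2 averaged 59.2 ± 20.5 CPM in intact nerve, 20.2 ± 7.0 CPM at 7 dpi and 17.3 ± 5.93 CPM at 14 dpi and Usp54 averaged 75.9 ± 21.5 CPM in intact nerve, 15.3 ± 4.45 CPM at 7 dpi and 21.6 ± 5.55 CPM at 14 dpi.

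Bmx and Gkn3 are in an arterial list with 28 other tested genes. Of these, 11 fell and 10 rose at 7 dpi, and 5 fell and 6 rose at 14 dpi. The other arterial genes thus had calls in both directions at each time, with median log2 fold changes of -0.32 and -0.05.

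Transcriptional regulators made up 5 members. Zbtb16, a zinc finger repressor and a known glucocorticoid target, measured 35.2, 51.8, 11.8, 21.8 and 37 CPM in the intact libraries, 3.64, 5.52, 0.699, 0.153 and 0.546 CPM in the 7 dpi libraries and 2.36, 2.02, 2.40 and 1.22 CPM in the 14 dpi libraries. Of the 7 dpi libraries, those labelled batch 1133 and 1 of batch 1292 had under 1 CPM, while the intact libraries ranged widely. Tbx1, a T-box factor of heart and pharyngeal vessel development, measured 37.3, 35.4, 28.2, 39.2 and 29.5 CPM in the intact libraries, 9.02, 8.65, 7.77, 10.7 and 10.3 CPM in the 7 dpi libraries and 9.55, 12.7, 8.98 and 8.98 CPM in the 14 dpi libraries, with narrow ranges and the intact libraries above both injured groups. Cited4, a CBP/p300 interacting transactivator, measured 11.4, 14.3, 12.2, 17.4 and 7.81 CPM in the intact libraries, 0.388, 0.489, 0.370, 0.573 and 0.394 CPM in the 7 dpi libraries and 0.525, 1.44, 1.02 and 0.481 CPM in the 14 dpi libraries. Most injured libraries held it under 1 CPM. Fendrr, a long noncoding RNA next to Foxf1 that acts in heart and body wall development, averaged 19.6 ± 6.10 CPM in intact nerve, 5.74 ± 3.39 CPM at 7 dpi and 6.47 ± 2.96 CPM at 14 dpi.

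**Figure D3:**
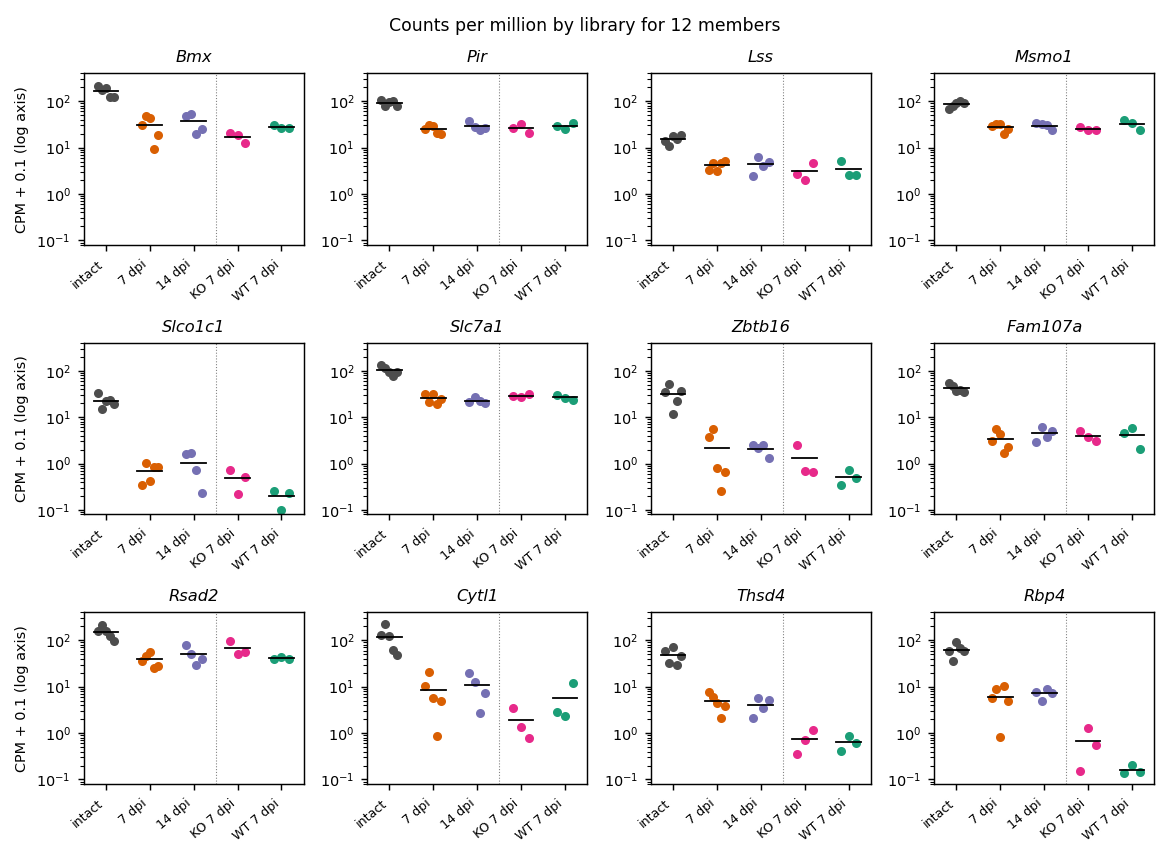
CPM (plus 0.1, log axis) of 12 members in each library (points) with the group mean (line), for intact, 7 dpi and 14 dpi Tomato cells and, right of the dotted line, KO and WT Cherry cells at 7 dpi. In all 12 panels the intact points lie above the points of the 4 injured groups.

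Zbtb16 and Fam107a are in a list with 31 other glucocorticoid-induced genes. At 7 dpi, 18 of these fell and 2 rose. At 14 dpi 10 fell and none rose, where 2 rose with DESeq2 and 3 at an unadjusted p under 0.05. Fam107a, an actin-binding protein, measured 54.7, 46.8, 37, 38.3 and 34.7 CPM in the intact libraries, 3.01, 5.38, 4.19, 1.57 and 2.12 CPM in the 7 dpi libraries and 2.78, 6.17, 3.60 and 4.84 CPM in the 14 dpi libraries. The highest injured library stood well below the lowest intact one. At 14 dpi against 7 dpi, 11 genes of the list rose and 1 fell.

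Enzymes and stress proteins included Pir, Osgin1, Prodh, Aldh1l1 and Rsad2. Pir encodes pirin, an iron-binding nuclear protein, and is a known target of the oxidative stress factor NRF2. It measured 104, 78.7, 96.5, 99.1 and 79.1 CPM in the intact libraries, 24.8, 31.3, 28.7, 21 and 19.4 CPM in the 7 dpi libraries and 37.8, 27, 23.9 and 26.7 CPM in the 14 dpi libraries. Osgin1, an oxidative stress induced growth inhibitor and likewise a known NRF2 target, measured 59.4, 37.9, 51.4, 63.6 and 82.8 CPM in the intact libraries, 8.43, 12.5, 7.85, 12.7 and 14 CPM in the 7 dpi libraries and 15.1, 14.2, 15.4 and 16.7 CPM in the 14 dpi libraries. All 4 of its 14 dpi libraries lay above the highest 7 dpi library, at levels still below every intact library. Of 14 other NRF2 target genes in a list made after the members were seen, 2 fell and 5 rose at 7 dpi, and 1 fell and 1 rose at 14 dpi. DESeq2 called 2 that fell at 14 dpi. The list thus had calls in both directions at each time.

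Prodh, the mitochondrial enzyme that starts proline breakdown, measured 110.4, 62.7, 104, 163 and 189.8 CPM in the intact libraries, 19.5, 21.8, 21.4, 28.7 and 24.5 CPM in the 7 dpi libraries and 21.1, 29.2, 46.7 and 37.3 CPM in the 14 dpi libraries. Aldh1l1, a folate enzyme that oxidizes 10-formyltetrahydrofolate, averaged 39.8 ± 14.9 CPM in intact nerve, 12.5 ± 3.48 CPM at 7 dpi and 12.3 ± 3.69 CPM at 14 dpi. Rsad2, or viperin, an interferon-induced antiviral enzyme, measured 159, 208, 155, 123 and 96.1 CPM in the intact libraries, 35.2, 46.8, 56.8, 25.2 and 28.4 CPM in the 7 dpi libraries and 77.7, 51.4, 29.6 and 38.9 CPM in the 14 dpi libraries. Of 38 other interferon-stimulated genes tested, 23 fell at 7 dpi and 9 at 14 dpi. None rose at either time, also with DESeq2 or at an unadjusted p under 0.05. Prodh shares its locus with Dgcr6 on the opposite strand (93.4 CPM in intact nerve), and, as the strand setting is not given in the sources used here, reads may be shared.

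The remaining members are structural or of less defined role. Krt7, a keratin of simple epithelia, measured 13.1, 8.39, 23.6, 24 and 28 CPM in the intact libraries, 2.52, 3.13, 1.73, 10.6 and 5.28 CPM in the 7 dpi libraries and 2.89, 3.07, 3.07 and 7.09 CPM in the 14 dpi libraries, and 1 library of 7 dpi was above the lowest intact one. Tuba4a, an alpha tubulin, measured 30.00, 27.4, 30.3, 28.7 and 28.1 CPM in the intact libraries, 7.76, 8.21, 9.99, 5.16 and 6.25 CPM in the 7 dpi libraries and 12.9, 9.39, 10.6 and 5.90 CPM in the 14 dpi libraries, with intact libraries close to each other. Scin, an actin-severing protein, averaged 18.5 ± 5.73 CPM in intact nerve, 2.87 ± 1.35 CPM at 7 dpi and 2.79 ± 0.523 CPM at 14 dpi, and Vil1, its relative of the gelsolin family, averaged 10.1 ± 1.40 CPM in intact nerve, 1.45 ± 0.763 CPM at 7 dpi and 2.58 ± 2.10 CPM at 14 dpi. Tmtc1, a mannosyltransferase of cadherins, measured 54.5, 39, 46.9, 49.6 and 65.8 CPM in the intact libraries, 5.28, 11.4, 6.29, 3.02 and 4.46 CPM in the 7 dpi libraries and 6.24, 8.97, 8.02 and 7.28 CPM in the 14 dpi libraries. Tent5b, a poly(A) polymerase, averaged 25.6 ± 8.03 CPM in intact nerve, 3.50 ± 1.83 CPM at 7 dpi and 5.95 ± 4.91 CPM at 14 dpi. Tmem221 averaged 20.1 ± 5.99 CPM in intact nerve, 4.78 ± 1.47 CPM at 7 dpi and 5.89 ± 2.18 CPM at 14 dpi and Cend1, a protein of neuronal cell cycle exit, averaged 14.7 ± 6.51 CPM in intact nerve, 2.01 ± 0.605 CPM at 7 dpi and 1.80 ± 1.37 CPM at 14 dpi. AC138228.2, an identifier without a gene name in the files, averaged 14.5 ± 4.03 CPM in intact nerve, 0.663 ± 0.370 CPM at 7 dpi and 1.08 ± 0.602 CPM at 14 dpi. Tuba4a, Vil1 and Tmtc1 overlap opposite-strand genes with 59.6, 44.4 and 66.3 CPM in intact nerve.

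Per kilobase of exon, the order of intact levels differed from that of CPM. Cytl1 led with 121 RPKM, followed by Pglyrp1 with 103 RPKM, Pir with 57.2 RPKM and Bmx with 52.9 RPKM. Slc37a2 was lowest with 2.45 RPKM. The members lie on 17 chromosomes, with at most 6 on one of them. Bmx (chromosome X, 164192842 to 164258193, minus strand) and Pir (chromosome X, 164269431 to 164373011, plus strand) are neighbours on opposite strands, with 11238 bases between their starts (GRCm38). Both belonged to the 7 members with the highest intact CPM. Prodh and Tbx1 lie 490776 bases apart on chromosome 16.

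The 250 bases before and 50 after the start are given by RefSeq (GRCm38.p6) for 40 of the members, as 48 windows. Among those with no entry were Ppm1l, Zbtb16, Lamc3, Comp, Penk, Osbpl10 and AC138228.2. Of 10 short motifs searched on both strands in all 32851 windows, the AP-1 letters TGANTCA were in 8 member windows, 16.7%, against 7.81% of all windows. All of these matches lay before the start. The following 250 bases before the start are shown because they hold that motif in members of different roles, with its letters in capitals, 5′ to 3′ on the gene's strand: Msmo1 at chr8:64733579-64733828 (minus strand), Osgin1 at chr8:119436897-119437146 (plus strand), Pir at chrX:164269181-164269430 (plus strand), Rsad2 at chr12:26456453-26456702 (minus strand) and Slc7a1 at chr5:148399905-148400154 (minus strand).
Msmo1: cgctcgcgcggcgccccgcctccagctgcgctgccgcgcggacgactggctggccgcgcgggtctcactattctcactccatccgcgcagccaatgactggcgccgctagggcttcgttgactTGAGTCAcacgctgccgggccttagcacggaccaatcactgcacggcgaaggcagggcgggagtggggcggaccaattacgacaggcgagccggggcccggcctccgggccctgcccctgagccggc
Osgin1: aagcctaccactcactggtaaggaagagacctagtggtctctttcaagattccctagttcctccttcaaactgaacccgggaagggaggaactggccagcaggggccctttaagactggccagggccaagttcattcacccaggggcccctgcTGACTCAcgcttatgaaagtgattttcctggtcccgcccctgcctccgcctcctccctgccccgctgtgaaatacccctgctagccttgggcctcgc
Pir: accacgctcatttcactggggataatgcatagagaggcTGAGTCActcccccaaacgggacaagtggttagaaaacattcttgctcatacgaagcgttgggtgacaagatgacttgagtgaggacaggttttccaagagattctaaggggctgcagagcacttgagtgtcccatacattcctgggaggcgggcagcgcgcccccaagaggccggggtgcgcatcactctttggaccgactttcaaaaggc
Rsad2: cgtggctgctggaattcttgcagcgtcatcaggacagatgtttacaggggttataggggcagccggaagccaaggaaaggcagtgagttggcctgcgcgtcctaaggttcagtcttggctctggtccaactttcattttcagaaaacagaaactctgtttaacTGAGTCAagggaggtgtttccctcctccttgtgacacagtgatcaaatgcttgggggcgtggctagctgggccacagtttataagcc
Slc7a1: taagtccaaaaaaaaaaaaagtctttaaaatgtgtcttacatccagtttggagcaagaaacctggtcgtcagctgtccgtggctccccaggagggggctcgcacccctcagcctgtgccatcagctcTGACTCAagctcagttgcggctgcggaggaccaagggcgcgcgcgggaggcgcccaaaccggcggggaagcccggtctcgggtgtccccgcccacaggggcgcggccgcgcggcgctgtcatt

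The match began 97 bases before the start in Osgin1, 212 in Pir, 87 in Rsad2 and 123 in Slc7a1. Lsr, Rbp4 and Slc37a2 held the others. In Pir the motif overlaps a match to the antioxidant response element letters TGACNNNGC, a search added after the members were seen, which was in 14.6% of member windows and 12.4% of all windows. The half-site pair of the glucocorticoid receptor, ACANNNTGT, was in 8.33% of member windows and 6.85% of all. It is shown in capitals for Fam107a, the glucocorticoid-induced member with an entry, at chr14:8309780-8310029 (minus strand).
Fam107a: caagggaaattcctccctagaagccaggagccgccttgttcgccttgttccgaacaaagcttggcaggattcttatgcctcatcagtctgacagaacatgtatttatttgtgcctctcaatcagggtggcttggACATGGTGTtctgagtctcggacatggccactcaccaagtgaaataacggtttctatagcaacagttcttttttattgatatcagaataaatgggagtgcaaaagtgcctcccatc

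The other motifs were near, above or below their share in all windows. KLF/SP letters GGGCGGGG were in 25% of member windows against 17.6%, TATAAA in 14.6% against 13.6%, FOX letters TGTTTAC in 6.25% against 3.65%, and TTCNNNGAA in 4.17% against 8.30%. TCF/LEF letters CTTTGAT were in 4.17% against 3.73%, the E-box CACGTG in 2.08% against 7.15%, the D-box TTATGTAA in 2.08% against 0.938% and the CRE letters TGACGTCA in 2.08% against 1.79%. The sterol response letters TCACNCCAC, also added later, were in no member window and in 1.24% of all, which says nothing of sites elsewhere. Several members have overlapping windows, so windows are not independent. A match is a description of letters and not a binding site.

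The Cherry WT cells offered the same time point in other mice with another reporter. They were normalized separately, so these levels are a description. All 50 members were below every intact Tomato library in every WT library, and in every KO library too, against 26.1% of the 9495 genes for WT. In WT cells 45 of the 50 were at least 1.5 (log2) below intact Tomato cells, against 10.2% of the 9495 genes. The other 5 were Msmo1, Pglyrp1, Ppm1l, Plekhs1 and Fendrr. The intact Tomato values also chose the members, so both shares follow in part from the rule. Nor is this particular to the members: of 480 other genes at least 1.5 lower at 7 dpi, 93.1% were that far below intact in WT cells. For 43 members the WT level lay within 1 (log2) of Tomato 7 dpi cells, and the median difference was -0.19.

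The 7 members that were lower still, by more than 1, were Rbp4, Krt7, Thsd4, Fgfbp1, Tent5b, Scin and Tmem221. Rbp4 measured 0.0399, 0.110 and 0.0424 CPM in WT Cherry libraries, against 5.53, 8.65, 0.740, 10.4 and 4.76 CPM in the Tomato 7 dpi libraries. Krt7 had 1, 0 and 0 reads in the WT libraries, where a count of 0 allows up to 3 reads. In the Tomato 7 dpi libraries it had 52, 64, 42, 278 and 174 reads. At the other end, Plekhs1 and Aqp11 were higher in WT Cherry than in Tomato 7 dpi cells by 0.59 and 0.57. All together, 11 members averaged under 1 CPM in WT Cherry cells.

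Marker levels moved between these groups as well. Members summed to 2153 to 2575 CPM in intact, 375 to 595 CPM in 7 dpi and 488 to 614 CPM in 14 dpi libraries. Markers of perineurial and barrier mesenchyme, 14 genes, summed to 5967 to 10137 CPM in intact, 772 to 2358 CPM in 7 dpi and 2641 to 5611 CPM in 14 dpi libraries. These markers came partly back at 14 dpi, where every library exceeded every 7 dpi library. The member sums of the 2 times overlapped, which follows from the recovery limit of the rule and is no finding about the members. The sums in Cherry cells were 276 to 332 CPM in KO and 469 to 488 CPM in WT libraries for the perineurial list, and 1736 to 4440 CPM in KO and 1971 to 3377 CPM in WT libraries for fibroblasts. Of defining markers, Cldn1 averaged 2.47 CPM in KO and 1.68 CPM in WT cells. The perineurial list shares a highly expressed gene with the list of barrier transporters, so its sums may hold endothelial RNA too. The part of perineurial cells and fibroblasts in the member differences was not tested.

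**Figure D4:**
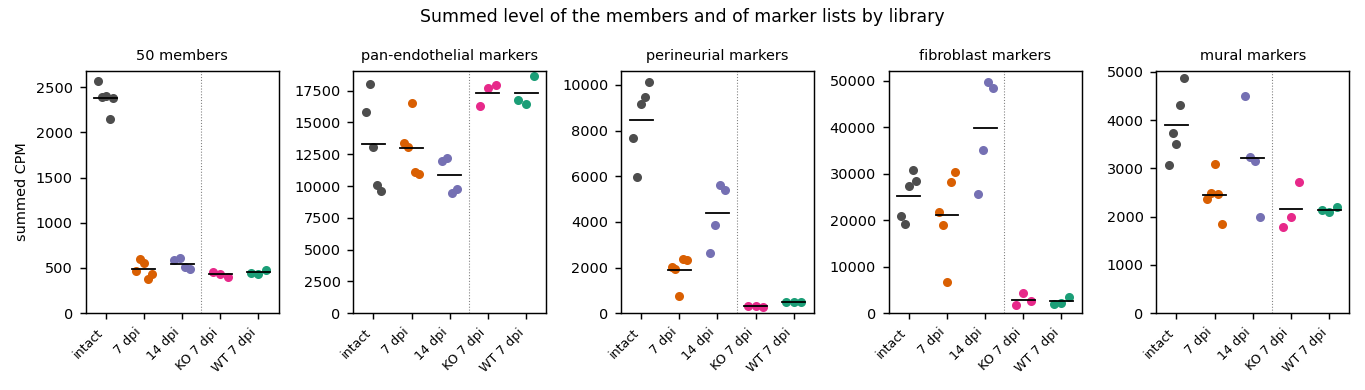
Summed CPM in each library (points) with the group mean (line) for the 50 members and for 4 marker lists, in intact, 7 dpi and 14 dpi Tomato cells and, right of the dotted line, KO and WT Cherry cells at 7 dpi. The member sum is above 2150 CPM in all intact libraries and under 620 CPM in all others, and its Tomato levels follow from the rule. The perineurial sum is higher at 14 than at 7 dpi.

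The test of Plxnd1 loss was independent of the choice of members. Of 46 members tested, none was called in KO against WT cells, while 0.308% of 16227 genes were called, 0.129% higher and 0.179% lower (edgeR adjusted p under 0.05). At an unadjusted p under 0.05, 9 of the 46 passed, 6 lower and 3 higher, against 11.5% of all genes. DESeq2 called 1 member, Rsad2, and 233 genes in all. The median log2 fold change of the members was -0.16, against -0.01 over all genes. The median was -0.17 for 417 tested genes at least 1.5 lower at 7 dpi that missed the 14 dpi or the recovery limit. Lower values in KO than in WT cells were found for 30 of the 46 members, 65.2%, and for 51.4% of all genes.

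Rsad2 had the smallest p, with 94, 50.6 and 56.3 CPM in the KO libraries, against 40.3, 44.5 and 40.1 CPM in the WT libraries. The KO values were above all WT values and more widely spread. Its log2 fold change was 0.85 ± 0.16 (SE, adjusted p = 0.0547), and 0.40 within batch 1133 and 1.13 within batch 1292. It passed with DESeq2 (adjusted p = 2.1e-04), with the ComBat-Seq counts (adjusted p = 0.0272), without the low-count filter (adjusted p = 1.7e-06) and without the third WT library (adjusted p = 0.0269). It did not pass without a batch term (0.73, adjusted p = 0.926), and without the first KO library its log2 fold change was 0.47 (adjusted p = 0.696). With each of the other libraries left out, the adjusted p was 0.0596 to 0.212. Of 38 other interferon-stimulated genes tested, 8 rose in KO cells (edgeR adjusted p under 0.05), against 0.129% of all genes that rose. With DESeq2 17 of them rose, where 233 of 16227 genes were called in either direction. At an unadjusted p under 0.05, 25 of them rose, where 11.5% of all genes passed in either direction. None of the 38 fell by any of these. Their median log2 fold change was 0.46.

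Bmx had 20.6, 18.9 and 12.2 CPM in the KO libraries, against 30.2, 25.8 and 25.9 CPM in the WT libraries. All 3 KO libraries lay below all WT libraries, and the log2 fold change was -0.52 ± 0.19 (adjusted p = 0.328). Tmtc1 had 2.39, 3.49 and 2.05 CPM in the KO libraries, against 4.67, 4.83 and 7.09 CPM in the WT libraries, a log2 fold change of -1.11 ± 0.33 (adjusted p = 0.233). Aqp11 had 12.5, 14.7 and 9.89 CPM in the KO libraries, against 17.6, 15.2 and 21.3 CPM in the WT libraries, and its log2 fold change was -0.53 ± 0.20 (adjusted p = 0.351), or -0.32 without the third WT library. In each of these the KO and WT values did not overlap. Such a separation, KO below WT, was found for 6 of the 46 members and 7.69% of all genes tested, and KO above WT for 1 member and 4.14% of all genes. Tbx1 had 4.26, 11.9 and 7.77 CPM in the KO libraries, against 6.07, 7.17 and 16.5 CPM in the WT libraries, with overlapping groups (log2 fold change -0.63 ± 0.25, adjusted p = 0.351, or -0.26 without a batch term).

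Zbtb16 had 2.44, 0.592 and 0.541 CPM in the KO libraries, against 0.239, 0.622 and 0.382 CPM in the WT libraries, and a single KO library, of batch 1292, stood above the rest (log2 fold change 1.68 ± 0.66, adjusted p = 0.355). Without the first KO library its log2 fold change was 0.62. Cytl1 had no stable direction: its log2 fold change was -1.55 ± 0.95 with all libraries (adjusted p = 0.592), 0.51 without the third WT library (adjusted p = 0.802) and -3.55 without the first KO library (adjusted p = 0.0227). The 4 members that the low-count filter left out were Rbp4, Slco1c1, Krt7 and Fgfbp1. Slco1c1, for example, had 12, 4 and 11 reads in the KO libraries and 4, 0 and 3 in the WT libraries. The cholesterol synthesis genes showed small differences: -0.11 ± 0.15 for Msmo1 and -0.03 ± 0.47 for Lss, neither past the threshold.

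**Figure D5:**
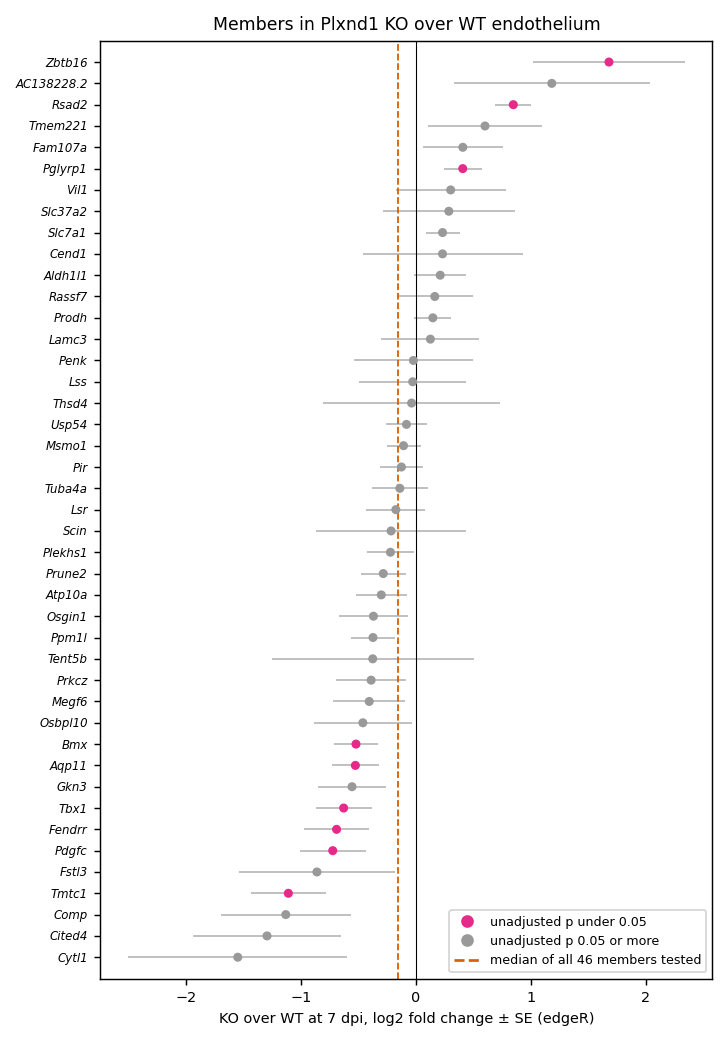
Log2 fold change of KO over WT cells at 7 dpi with its SE (bars) for 43 of the 46 members tested, sorted by value, from 3 KO and 3 WT libraries. Pink points have an unadjusted p under 0.05, none passes after adjustment over all 16227 genes, and the dashed line is the median of all 46, -0.16.

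Another 480 named genes were also at least 1.5 lower at 7 dpi but did not meet the 14 dpi or the recovery limit. Beside them, the members differed by the rule's own measure, with medians of 0.24 against 1.10 for 14 dpi minus 7 dpi. In WT Cherry cells the members lay at a median of -2.40 (log2) from intact Tomato cells and the 480 genes at -3.29. From Tomato 7 dpi cells, the median difference of WT Cherry cells was -0.19 for the members and -0.83 for the 480 genes. Summed exon length was similar, with medians of 3049 bases for the members and 3452 bases for the 480 genes. No test was made of these differences, since both sets were chosen on the Tomato libraries.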

How the data were processed

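Bulk polyA RNA-seq of sorted mouse nerve endothelial cells was used as raw counts per gene, which the authors deposited as whole numbers (per the file headers) in 3 tables: 1 of 14 Tomato libraries, 1 of 6 Cherry libraries and 1 of the Cherry counts after ComBat-Seq batch correction by the authors. Trimmomatic 0.39, STAR 2.5.3a and featureCounts 1.6.4 with mm10 (GRCm38) are named in the submitters' processing notes, as is Cell Ranger 3.0.2. The annotation release and the strand and multi-mapping settings were not given in the sources used here. Library totals were 19057029 to 34181449 counts.

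Members were found by column-sum CPM, a pseudocount of 1 and group means of log2 values. RPKM divides CPM by the deposited exon length in kilobases. Tests used edgeR 4.0.16 in R 4.3.3 (low-count filter, TMM, robust quasi-likelihood F test, batch in the model), with Benjamini-Hochberg adjustment over all genes tested at 0.05; the 14 Tomato libraries shared 1 fit. DESeq2 1.42.0 was an alternative. The SE is the absolute log2 fold change over the square root of F. The tests were tested on simulated data. Replicates were no duplicates (chi-square per degree of freedom 15.4 to 121 over 32 pairs). Every sample column was mapped; replicates are numbered in accession order, and nothing pairs them.

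The members and lists were chosen with earlier results of these data known, and the sterol and NRF2 lists and 2 motifs after the members were seen. Named genes were, of the members, the 15 with the highest intact CPM, the 15 most lowered at 14 dpi, up to 4 per list, the 6 with the smallest p in KO against WT since none was called, and genes next to each threshold; 47 of the 50 are given here, the rest chosen after their values were seen, and 3 members and 1 other gene are not reported here by name. Roles are from general knowledge. Alternatives were other scaling, pseudocount, thresholds, filter, batch handling and left-out libraries.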

Additional observations from a re-analysis of the deposited data

Results flagged for a closer look

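A library far from the others of its group was found in 5 of 141 groups (47 members in the intact, 7 dpi and 14 dpi groups), and chance gives about 1 in 20. At 14 dpi, Tbx1 had 12.7 CPM in the second library, against 9.55 CPM in the next, and Krt7 had 7.09 CPM in the fourth library, against 3.07 CPM. Also at 14 dpi, Scin had 3.57 CPM in the third library, against 2.62 CPM in the next, and Osbpl10 had 3.31 CPM in the first library, below the 4.14 CPM of the next. In intact nerve, Comp had 54.6 CPM in the second library, against 18.02 CPM in the next.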

How the results depend on the processing

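The number of members was 37 to 65 under TMM scaling, a pseudocount of 0.5, an intact minimum of 5 CPM and batch 1292 alone, 78 in batch 1133 alone and 20 with both limits at 2. With each Tomato library left out it was 38 to 57, with 37 to 47 of the 50 members kept. The 2 batches alone shared 16 of the members. Over 1800 recomputed member differences from intact, none changed sign and 16 moved by more than the replicate SD. Each member had to lie at least 1.5 below intact, so the unchanged signs follow largely from the rule. The median difference of all expressed genes lay within 0.1 of 0 under both scalings.

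For KO vs WT at 7 dpi, 50 genes were called. The count was 550 with the ComBat-Seq counts, 233 with DESeq2, 230 without the low-count filter and 5 without a batch term, and 6 to 40 with each library left out: 9 without the first and 6 without the third KO library, 25 without the first and 11 without the third WT library. No member was called with all libraries; 2 were with the ComBat-Seq counts (Rsad2 and Tmtc1), 1 with DESeq2 and 1 without the filter (Rsad2 in both), and 0 to 1 with each library left out. For 14 dpi vs 7 dpi, 2027 genes were called, 3227 with DESeq2, 1226 without a batch term, and 1305 to 1901 with each library left out, the lowest without the second 14 dpi library. The cause of these moves was not tested. The counts of genes for 7 dpi and for 14 dpi against intact stayed within 1.5 times under all alternatives run.

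Motif shares in the 250 bases before the start fell to 0 for the E-box and the CRE letters, each in 1 window of 300 bases. No paired analysis was possible because the labels give no replicate numbers that the groups share. Depth limits the KO comparison of members under 1 CPM, and 3 libraries a group limit its precision.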
